A study of Mus musculus with 12 samples.

Results

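The genes described are 10 members of the Notch signalling pathway in mouse cell lines that come from embryonic fibroblasts (MEF): the receptors Notch1, Notch2 and Notch3, the ligands Jag1 and Dll1, the target genes Hes1, Hey1, Hey2 and Heyl, and the feedback gene Nrarp. They were chosen by symbol among the 37310 genes of the count table, with the results of all comparisons between these libraries already known. Their values and the calls they receive are therefore a description of these libraries, and the number of members called is read only beside the share of all genes called. Of the 10 members, 9 passed the filter on low counts and were tested among 16630 genes. Heyl did not pass it.

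RNA-seq of ribosome-depleted total RNA was measured in 12 libraries, 3 in each of 4 groups. The 1st group is the line labelled as knockout for HP1γ, the heterochromatin protein encoded by Cbx3, after 30 min with 100 nM phorbol 12-myristate 13-acetate in DMSO (PMA, which switches on protein kinase C). The other groups are the knockout-labelled line untreated, the line recomplemented for HP1γ (HPg) with the same PMA treatment, and the HPg line untreated. The design sets the 2 lines against each other, and each line under PMA, which the submitters call a stress, against itself untreated. The labels name 1 line of each kind, so HP1γ status and any other difference between these lines cannot be told apart, and the sources used here do not give a vehicle for untreated cells.

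In Notch signalling a Jagged or Delta ligand on a neighbouring cell binds a Notch receptor, which is then cut by an ADAM protease and by γ-secretase. The freed intracellular domain joins the DNA-binding protein RBPJ and a Mastermind coactivator in the nucleus and switches on target genes. The HES and HEY proteins are basic helix-loop-helix transcriptional repressors, and NRARP lowers Notch output by acting on the receptor's intracellular domain. In mesenchymal tissue the pathway is best known from the vessel wall, where JAG1 and NOTCH3 act in smooth muscle cells and pericytes, and Hes1 is known to oscillate in cultured fibroblasts.

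Total counts were 111458145 to 159929347 per library. Cbx3 did not separate the labels: the libraries numbered 1, 2 and 3 had 33.3, 26.9 and 35.2 CPM (read counts scaled to a common library size) in knockout-labelled cells with PMA, 35.5, 39.0 and 35.0 in untreated knockout-labelled cells, 43.1, 33.8 and 38.9 in HPg cells with PMA, and 37.1, 37.4 and 41.5 in untreated HPg cells. The groups overlapped, so the libraries are named by their label throughout. Egr1 and Fos, immediate-early genes that phorbol esters induce, were higher with PMA by 5.50 and 6.81 on the log2 scale in knockout-labelled cells and by 5.45 and 6.10 in HPg cells. Of the 10 fibroblast markers, 6 averaged 92.3 CPM or more in each of the 4 groups: Col1a1 (3779 to 5321), Vim (3099 to 4153), Fn1 (1536 to 1668), Col3a1 (1243 to 1745), Pdgfrb (295 to 373) and Pdgfra (92.3 to 121). The other 4 were low, at 7.62 to 12.3 CPM for Col1a2, 3.98 to 7.01 CPM for Dcn, 0.0432 to 0.174 CPM for Lum and 0 to 0.0274 CPM for Thy1. Of the 6 endothelial markers, Cdh5, Tie1 and Emcn were at most 0.0734 CPM in any library, while Pecam1 had 0.569 to 0.942, Kdr 0.341 to 3.26 and Tek 0.49 to 5.14 CPM. The smooth muscle and pericyte list summed to 1595 to 3310 CPM, most of it from Acta2 and Tagln. Group averages were 1431 to 1970 CPM for Acta2, 498 to 755 for Tagln and 62.7 to 81.1 for Cnn1. The others were low, at 3.09 to 5.88 CPM for Myh11, 0.338 to 1.14 for Des and 0.0558 to 0.11 for Rgs5.

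For some members the libraries numbered 2 differed from those numbered 1 and 3 in all 4 groups. Notch2, Notch3, Jag1 and Hes1 were highest in the library numbered 2 in 4 of 4 groups, and Nrarp was lowest there in 4 of 4. Of all 16630 genes, 15.36% were highest and 13.48% lowest in that library in all 4 groups. Such shares were not computed for the libraries numbered 1 or 3, so they do not show whether number 2 differs more than these. The summed fibroblast markers were 14030 to 16320 CPM in the 4 libraries numbered 2, against 9204 to 11260 CPM in the other 8. The markers of this list did not move one way. Col1a1, Col3a1, Fn1 and Dcn were highest in the library numbered 2 of every group. Vim was lowest there in every group, at 2798 to 3613 CPM, and the rest of the list held no single position. The summed endothelial markers were 5.30 to 8.82 CPM in the libraries numbered 2, against 1.94 to 4.04 CPM in the others. Of this list only Tek was highest there in every group, at 3.38 to 5.14 CPM against 0.490 to 1.71 CPM. Kdr was highest there in all groups but knockout-labelled cells with PMA. Pecam1 was lowest there in all groups but untreated HPg cells. The untreated HPg library numbered 2 also had a count in 17822 genes, against 19759 to 20656 in the other 11. The part of these differences in the Notch values was not tested, and a fit that takes the number as a block, or one without those libraries, is given beside each member's call that it changes.

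Promoter sequence was matched from RefSeq (GRCm38.p6) for 7 of the 10 members: Notch1, Notch2, Notch3, Jag1, Dll1, Hey2 and Nrarp. Hey2 and Nrarp are shown because they are the target and feedback genes with an entry. Each line gives the 250 bases before the annotated start, 5′ to 3′ on the strand of the gene. Capitals mark TTCCCAC in Hey2, which is the RBPJ core GTGGGAA read on the opposite strand, and the E-box CACGTG in Nrarp, the type of site that HEY proteins bind.
Hey2 (chr10:30842784-30843033, minus strand): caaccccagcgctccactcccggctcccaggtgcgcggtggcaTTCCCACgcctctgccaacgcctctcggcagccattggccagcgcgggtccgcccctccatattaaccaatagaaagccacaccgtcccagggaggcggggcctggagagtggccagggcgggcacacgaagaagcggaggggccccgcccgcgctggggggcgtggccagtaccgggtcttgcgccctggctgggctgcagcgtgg
Nrarp (chr2:25180508-25180757, plus strand): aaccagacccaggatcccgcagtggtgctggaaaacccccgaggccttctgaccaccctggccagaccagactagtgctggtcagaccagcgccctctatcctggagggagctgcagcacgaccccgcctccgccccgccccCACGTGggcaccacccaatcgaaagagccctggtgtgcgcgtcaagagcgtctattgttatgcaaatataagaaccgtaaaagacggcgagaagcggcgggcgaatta
Searched on both strands, the shorter RBPJ core TGGGAA, which lies within GTGGGAA, was found in these 250 bases for Hey2, at position -207 from the start, and for none of the other 6 members with an entry. It is in 21.6% of 32851 promoters of the same length, and GTGGGAA is in 5.42%. The E-box of Nrarp starts at position -108, and 6.02% of promoters hold CACGTG. A match describes the letters and is not a binding site.

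Levels per kilobase of exon placed Notch2 first among the 10 members in 3 groups and Hes1 first in knockout-labelled cells with PMA. On the scale of CPM per kilobase, Notch2 averaged 32.1 ± 2.73 in knockout-labelled cells with PMA, 34.3 ± 4.21 in untreated knockout-labelled cells, 26.8 ± 2.76 in HPg cells with PMA and 31.5 ± 3.97 in untreated HPg cells (SD, n = 3 each). Hes1 averaged 54.6 ± 11.1, 7.05 ± 2.69, 25.5 ± 12.6 and 3.38 ± 1.46 CPM per kilobase in the same 4 groups. Hes1 thus stood 1st, 3rd, 2nd and 4th in these groups. Jag1 and Notch1 were next to each other in rank in 3 of the groups, and their libraries overlapped in each of those. Nrarp was 5th and Hey1 6th in every group. Below them Notch3, Dll1 and Hey2 were all under 0.346 CPM per kilobase on average, and Heyl was last. In these bulk libraries fewer cells with a transcript and less of it per cell cannot be told apart. In untreated knockout-labelled cells Hey1, Notch3 and Dll1 each overlapped the next in rank, whereas in HPg cells with PMA none of the members from Jag1 down overlapped the next.

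Among the 3 receptors of the member list, Notch2 made up most of their summed level per length. Notch4, a receptor outside that list, averaged 0.0587 to 0.108 CPM per kilobase over the 4 groups and is left out of the shares. For Notch2 the values were as follows. Its share was 77.5% ± 1.46 in knockout-labelled cells with PMA, 86.4% ± 1.32 in untreated knockout-labelled cells, 76.4% ± 5.33 in HPg cells with PMA and 82.4% ± 1.98 in untreated HPg cells (SD, n = 3). Notch1 held 22.0% ± 1.28, 12.9% ± 1.48, 23.4% ± 5.29 and 17.3% ± 2.15 in the same 4 groups, and Notch3 under 0.746% on average in each.

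**Figure D1:**
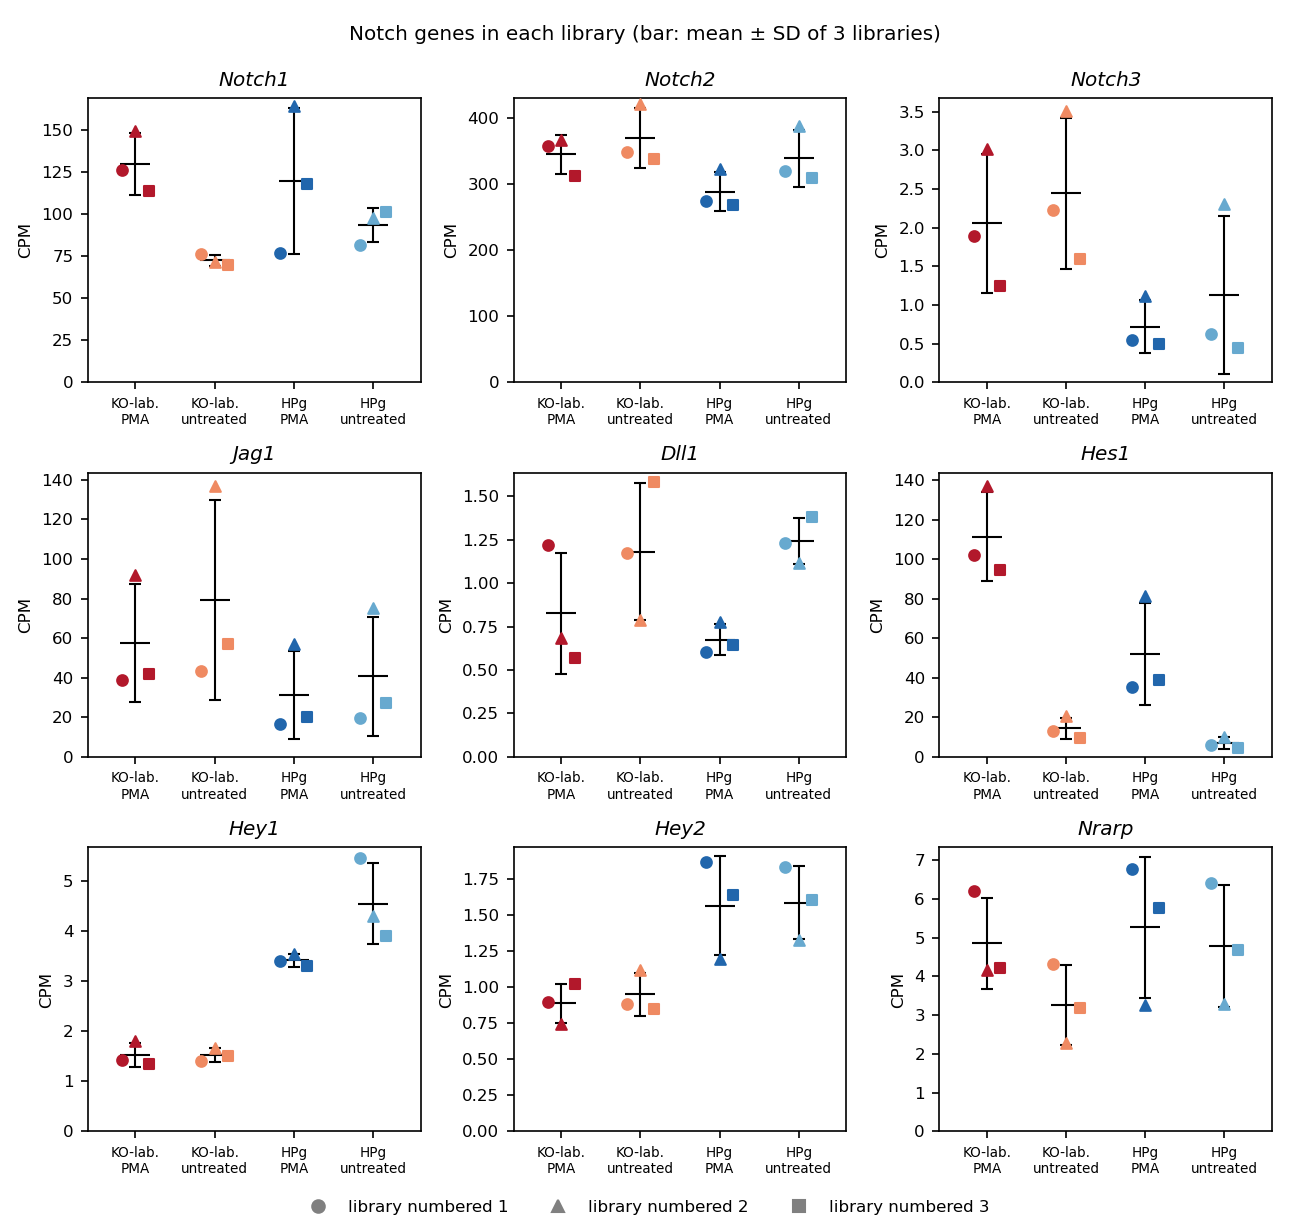
CPM (y axis, from 0) of the 9 members that passed the filter, by group, with 1 point per library, shaped by replicate number, and a bar for the mean ± SD of 3 libraries. Hes1 is higher in all PMA libraries (35.5 to 137 CPM) than in all untreated ones (4.43 to 20.4 CPM), Hey1 is lower in all knockout-labelled libraries (1.34 to 1.80 CPM) than in all HPg libraries (3.29 to 5.45 CPM), and the triangles mark the libraries numbered 2.

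Notch1, a receptor found on many cell types, was higher with PMA in the knockout-labelled line. It had 126, 149.5 and 114 CPM in knockout-labelled cells with PMA and 76.2, 71.4 and 69.6 CPM in untreated knockout-labelled cells, in the order of the libraries numbered 1, 2 and 3. It had 76.9, 163.9 and 118 CPM in HPg cells with PMA, against 81.8, 97.8 and 100.9 CPM in untreated HPg cells. The knockout-labelled libraries did not overlap between treatments, whereas in HPg cells the PMA library numbered 1 was below all untreated libraries. The log2 fold change with PMA was 0.84 ± 0.217 (SE) in knockout-labelled cells, with an adjusted p of 0.0477 by edgeR's quasi-likelihood test over all genes. In HPg cells it was 0.36 ± 0.215 (adjusted p = 0.441, edgeR), and the difference of these responses was 0.49 ± 0.304 with an unadjusted p of 0.136 and an adjusted p of 1 in edgeR. The call in knockout-labelled cells was lost when any of 9 of the 12 libraries was left out: all 6 knockout-labelled libraries, the untreated HPg libraries 1 and 3 and the PMA-treated HPg library 3. Adjusted p-values (edgeR) then ran from 0.0542 to 0.187, with fold changes of 0.73 to 0.93. Without all 4 libraries numbered 2 the call was lost as well, at 0.72 (adjusted p = 0.0606, edgeR), and over all 22 alternatives the adjusted p was 0.00613 to 0.187. Untreated, Notch1 was lower in all knockout-labelled libraries than in all HPg libraries, by a log2 difference of -0.37 ± 0.215 that was not called (adjusted p = 0.481, edgeR). In the GENCODE M21 annotation, antisense exons of 0610009E02Rik and Gm13568 cover 7.5% and 2.91% of the Notch1 exon bases, and the sources used here do not say whether the counting used strand. Both antisense genes have rows in the count table.

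Notch2, a receptor close to Notch1 in structure, was called in no comparison. It had 358, 367 and 312 CPM in knockout-labelled cells with PMA and 349.6, 422 and 339 CPM untreated, and in HPg cells it had 275, 323 and 269 CPM with PMA and 319.8, 388 and 309.7 CPM untreated. The groups overlapped in every comparison, and its log2 fold changes lay between -0.23 and 0.26 in the 4 comparisons.

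Notch3, the receptor of vascular smooth muscle cells and pericytes, was a low-level gene, with 59 to 488 counts per library. It had 1.89, 3.02 and 1.25 CPM in knockout-labelled cells with PMA and 2.23, 3.50 and 1.59 CPM in untreated knockout-labelled cells. HPg cells had 0.55, 1.11 and 0.49 CPM with PMA and 0.624, 2.31 and 0.448 CPM untreated. The knockout-labelled library was higher in all 3 same-numbered pairs in each condition, by 3.44, 2.72 and 2.55 times with PMA and by 3.58, 1.52 and 3.56 times untreated. The groups did not overlap with PMA but overlapped untreated, where the HPg library numbered 2 exceeded the knockout-labelled libraries 1 and 3. edgeR did not call it: the log2 difference was 1.52 ± 0.588 with PMA (adjusted p = 0.194) and 1.12 ± 0.580 untreated (adjusted p = 0.413). With the replicate number as a block both were called higher in knockout-labelled cells, at 1.54 (adjusted p = 0.00195) and 1.35 (adjusted p = 0.00496) in edgeR. Without the libraries numbered 2 they were 1.59 (adjusted p = 0.0132) and 1.83 (adjusted p = 0.00856) in edgeR. Without the untreated HPg library 2 alone, the untreated difference was 2.19 and was called in edgeR (adjusted p = 0.0469). Over all 22 alternatives the adjusted p was 0.00195 to 0.462 with PMA and 0.00496 to 0.716 untreated. The 6 smooth muscle and pericyte markers, Acta2, Tagln, Myh11, Cnn1, Des and Rgs5, summed to 2223 to 3310 CPM in knockout-labelled cells with PMA against 1595 to 2905 CPM in HPg cells with PMA, and to 2178 to 2858 against 1762 to 2613 CPM untreated. Of these 6, edgeR without a block called 1 between the lines with PMA, Des, a muscle intermediate filament, at 1.76 ± 0.376 on the log2 scale (adjusted p = 0.0328), and none untreated. With the block it called 4 with PMA, Acta2 (0.48), Cnn1 (0.41) and Des (1.80) higher and Myh11 (-0.71) lower, and none untreated. Acta2 and Tagln made up most of each sum, while Des and Rgs5 were low-level genes. The part of these markers in the Notch3 difference was not tested.

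Jag1, a ligand of the Jagged type, had its highest level in the library numbered 2 of every group. It had 38.9, 91.8 and 41.7 CPM in knockout-labelled cells with PMA and 43.5, 137 and 57.0 CPM untreated, and 16.8, 57.1 and 20.1 CPM in HPg cells with PMA and 19.4, 75.3 and 27.2 CPM untreated. The library numbered 2 had 2.28 to 3.23 times the mean of the other 2 libraries in its group. Within each number, knockout-labelled cells had more: 2.32, 1.61 and 2.07 times the HPg level with PMA and 2.25, 1.82 and 2.10 times untreated. The groups overlapped in every comparison and edgeR without a block called none, with log2 differences of 0.87 ± 0.626 with PMA (adjusted p = 0.499) and 0.96 ± 0.626 untreated (adjusted p = 0.543). With the block they were 0.99 ± 0.115 (adjusted p = 0.000136) and 1.03 ± 0.115 (adjusted p = 0.000103), both called in edgeR. Without the libraries numbered 2 they were 1.13 (adjusted p = 0.00353) and 1.11 (adjusted p = 0.00481) in edgeR. Over all 22 alternatives the adjusted p was 0.000136 to 0.837 with PMA and 0.000103 to 0.902 untreated. The blocked fit also called Jag1 lower with PMA in knockout-labelled cells, at -0.39 ± 0.114 (adjusted p = 0.0365, edgeR; 0.0365 to 0.972 over the alternatives), where the pairs were at 0.893, 0.669 and 0.732 times the untreated level. In HPg cells the blocked value was -0.35 ± 0.114 and was not called (adjusted p = 0.0537, edgeR).

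Dll1, a ligand of the Delta type, was near the lower end of what these libraries measure, with 62 to 222 counts. It had 1.22, 0.686 and 0.57 CPM in knockout-labelled cells with PMA and 1.17, 0.79 and 1.58 CPM untreated. HPg cells had 0.602, 0.774 and 0.645 CPM with PMA and 1.23, 1.12 and 1.38 CPM untreated. In HPg cells all PMA libraries were below all untreated ones, by a log2 difference of -0.88 ± 0.334 that edgeR did not call (adjusted p = 0.186). The direction between the lines was not stable: it turned from one sign to the other in 3 of 22 alternatives untreated and in 1 of 22 with PMA. A non-coding gene on the opposite strand, A930024N18Rik, covers 20.5% of the Dll1 exon bases in GENCODE M21 and has no row in the count table.

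Hes1, the HES repressor of the list, rose with PMA in both lines. It had 102, 137 and 94.6 CPM in knockout-labelled cells with PMA, against 13.0, 20.4 and 9.68 CPM in untreated knockout-labelled cells. It had 35.5, 81.5 and 38.6 CPM in HPg cells with PMA, against 6.05, 10.2 and 4.43 CPM in untreated HPg cells. Treatments did not overlap in either line. The log2 fold change was 2.95 ± 0.403 in knockout-labelled cells (adjusted p = 0.00137) and 2.91 ± 0.404 in HPg cells (adjusted p = 0.00207) in edgeR. Both calls held in all 22 alternatives, with adjusted p-values up to 0.0133 and 0.0205 in these fits. Without the block, the difference between the 2 responses was 0.04, with a 95% interval of -1.01 to 1.09 and an unadjusted p of 0.943 in edgeR. A difference of up to about 1 log2 unit in either direction lies within that interval, which takes no account of the replicate number. Over 21 alternatives, the blocked fit among them, the difference was -0.358 to 0.53.

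Hes1 also stood higher in the knockout-labelled line within each replicate number. The ratios were 2.88, 1.68 and 2.45 with PMA and 2.15, 2.01 and 2.19 untreated. The groups did not overlap with PMA and overlapped untreated, where the HPg library numbered 2 was above the knockout-labelled library numbered 3. edgeR without a block gave log2 differences of 1.10 ± 0.378 with PMA (adjusted p = 0.149) and 1.06 ± 0.383 untreated (adjusted p = 0.218), neither of which was called. With the block these were 1.19 ± 0.137 (adjusted p = 0.000127) and 1.08 ± 0.141 (adjusted p = 0.000332), both called in edgeR. Without the libraries numbered 2 they were 1.41 (adjusted p = 0.000521) and 1.11 (adjusted p = 0.00409) in edgeR. Without the PMA-treated HPg library 2 alone, the difference with PMA was 1.58 and was called in edgeR (adjusted p = 0.0415). Over all 22 alternatives the adjusted p was 0.000127 to 0.417 with PMA and 0.000332 to 0.5002 untreated.

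Hey1, a HEY repressor, was lower in the knockout-labelled line in both conditions. It had 1.42, 1.80 and 1.34 CPM in knockout-labelled cells with PMA, against 3.40, 3.53 and 3.29 CPM in HPg cells with PMA. Untreated, knockout-labelled cells had 1.40, 1.67 and 1.49 CPM, against 5.45, 4.29 and 3.89 CPM in HPg cells. These values rest on 146 to 239 counts per knockout-labelled library and 403 to 690 per HPg library, and the lines did not overlap in either condition. The log2 difference was -1.58 ± 0.199 untreated (adjusted p = 0.00276) and -1.16 ± 0.197 with PMA (adjusted p = 0.0126) in edgeR. The untreated call held when each library was left out in turn and ended in the fit of the 2 untreated groups alone (adjusted p = 0.0603, edgeR), with adjusted p-values of 3.10e-13 to 0.0603 over all 22 alternatives. The call with PMA ended without knockout-labelled library 1 (0.0649) or 3 (0.0544) and without HPg library 1 (0.0525) or 3 (0.0577) of the PMA groups, as adjusted p-values in edgeR, with log2 differences of -1.08 to -1.19. Over all 22 alternatives the adjusted p with PMA was 6.24e-07 to 0.0649. With PMA, Hey1 in HPg cells was below all untreated libraries, at -0.41 ± 0.193 (adjusted p = 0.294, edgeR). In knockout-labelled cells the value was 0.00 ± 0.197, and the difference between these responses was 0.42 ± 0.276, which was not called (adjusted p = 1, edgeR).

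Hey2, another HEY repressor, was not called between the lines in edgeR, although its knockout-labelled libraries all lay below the HPg libraries. It had 0.899, 0.746 and 1.02 CPM in knockout-labelled cells with PMA, against 1.87, 1.19 and 1.64 CPM in HPg cells with PMA. Untreated, it had 0.887, 1.12 and 0.847 CPM in knockout-labelled cells, against 1.83, 1.33 and 1.60 CPM in HPg cells. These values rest on 99 to 156 counts per knockout-labelled library and 158 to 289 per HPg library. The log2 difference was -0.82 ± 0.256 with PMA (adjusted p = 0.114, edgeR) and -0.74 ± 0.255 untreated (adjusted p = 0.198, edgeR). With the block the value with PMA was -0.81 and was called (adjusted p = 0.0313, edgeR), and the untreated value was -0.71 (adjusted p = 0.0666, edgeR). Over all 22 alternatives these p-values were 0.0213 to 0.345 and 0.0615 to 0.546. Hey2 lies on chromosome 10, where the median log2 difference between the lines was -0.23 in both conditions. With the chromosome medians removed, Hey2 was at -0.59 with PMA and -0.50 untreated. PMA moved it by -0.10 ± 0.256 in knockout-labelled cells and by -0.02 ± 0.252 in HPg cells. Heyl, the third HEY gene, had 0 or 1 count in each of the 12 libraries, so no difference in it was detectable at this depth.

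Nrarp had 6.21, 4.16 and 4.21 CPM in knockout-labelled cells with PMA and 4.33, 2.28 and 3.19 CPM untreated, and 6.79, 3.26 and 5.77 CPM in HPg cells with PMA and 6.42, 3.29 and 4.68 CPM untreated. The groups overlapped in every comparison and edgeR without a block called none. Untreated, the pairs were alike, with knockout-labelled cells at 0.674, 0.695 and 0.682 times the HPg level. The blocked fit called this lower, at -0.55 ± 0.155 (adjusted p = 0.0339, edgeR), against an adjusted p of 0.490 without the block and 0.0339 to 0.834 over the alternatives. In knockout-labelled cells the PMA library was 1.44, 1.82 and 1.32 times its untreated pair, which the blocked fit called higher at 0.61 ± 0.155 (adjusted p = 0.0198, edgeR; 0.0198 to 0.774 over the alternatives). Gm38287, an antisense gene, covers 79.4% of the Nrarp exon bases in GENCODE M21, so without strand in the counting the reads of these genes cannot be told apart. Gm38287 has no row of its own in the count table.

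**Figure D2:**
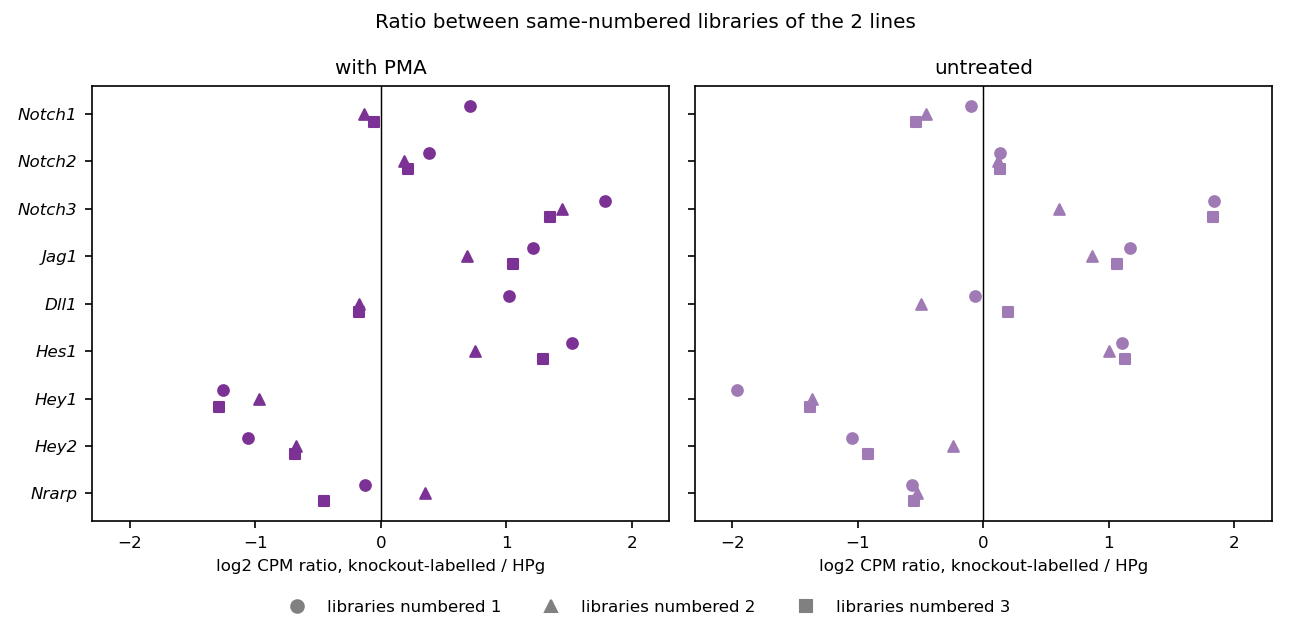
log2 ratio of CPM between the knockout-labelled and the HPg library with the same replicate number (x axis) for 9 members (y axis), with PMA on the left and untreated on the right, 1 point per pair. Notch2, Notch3, Jag1 and Hes1 are above 0 and Hey1 and Hey2 below 0 in all 3 pairs of both conditions, while Notch1, Dll1 and Nrarp have pairs on both sides of 0 with PMA.

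Counted over the list, edgeR called 1 of the 9 tested members between the lines with PMA and 1 untreated, Hey1 lower in each. Over all 16630 genes it called 2.47% with PMA and 1.32% untreated. With the replicate block, 5 members were called in each condition: Notch3, Jag1 and Hes1 higher and Hey1 lower in both, with Hey2 lower with PMA and Nrarp lower untreated. That fit called 18.6% of all genes with PMA and 12.5% untreated. The lines did not overlap for 4 members with PMA, Notch3 and Hes1 higher and Hey1 and Hey2 lower, and for 25.0% of all genes. Untreated they did not overlap for 3 members, Notch1, Hey1 and Hey2, all lower, and for 18.5% of all genes. The member median log2 difference was 0.26 with PMA and -0.07 untreated, against 0.01 for all genes in both. The HES and HEY genes of the list did not move one way: Hes1 was on the higher side and Hey1 and Hey2 on the lower side in knockout-labelled cells.

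With PMA against untreated, edgeR called 2 members higher in knockout-labelled cells, Hes1 and Notch1, and 1 in HPg cells, Hes1, where it called 4.44% and 3.45% of all genes. The blocked fit called 4 in knockout-labelled cells, Notch1, Hes1 and Nrarp higher and Jag1 lower, and Hes1 alone in HPg cells, where it called 13.4% and 14.8% of all genes. Treatments did not overlap for Hes1 and Notch1 in knockout-labelled cells, and for Hes1, Dll1 and Hey1 in HPg cells, the last 2 being lower. Over all genes 21.8% and 22.7% did not overlap. The median member log2 fold change was -0.10 in knockout-labelled cells and -0.23 in HPg cells, against -0.02 for all genes in both. The comparisons of 1 line share its libraries with the comparisons between lines, so their values are not independent. For the difference of the PMA response between the lines, edgeR called no member and 0.00% of all genes, with the block as well as without it. At an unadjusted p under 0.05 edgeR had 0 of 9 members and 328 of all genes, and DESeq2 called 1 gene of all, no member.

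**Figure D3:**
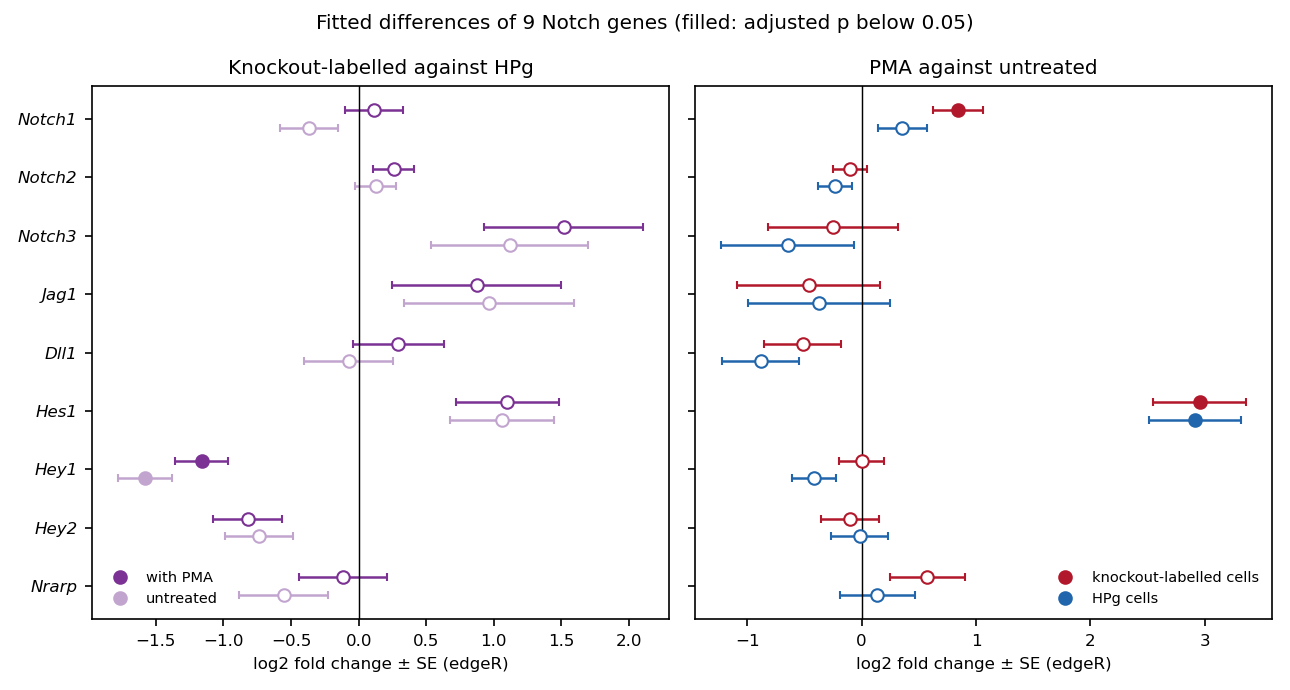
edgeR log2 fold changes ± SE (x axis) of 9 members (y axis), knockout-labelled against HPg on the left (with PMA above untreated) and PMA against untreated on the right (knockout-labelled above HPg). Filled points are called at an adjusted p below 0.05: Hey1 at -1.16 and -1.58 on the left, and Notch1 at 0.84 in knockout-labelled cells and Hes1 at 2.95 and 2.91 on the right.

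The rest of the pathway was described from a list of 57 other genes by role, of which 50 passed the filter. Dll3, Dll4, Dlk1, Hes2, Hes3, Hes5 and Helt did not. Between the lines edgeR called 1 of the 50 in each condition, where it called 1.32% of all genes untreated and 2.47% with PMA. Bhlhe41, a basic helix-loop-helix repressor related to the HES family, was lower in untreated knockout-labelled cells, with 6.53, 6.07 and 9.20 CPM against 14.3, 11.2 and 15.4 CPM in HPg cells. Its log2 difference was -0.91 ± 0.186 (adjusted p = 0.0352, edgeR). That call was lost without any of 7 libraries: knockout-labelled libraries 1 and 2 of each treatment, untreated HPg libraries 1 and 3, and PMA-treated HPg library 1. Adjusted p-values (edgeR) were then 0.0502 to 0.144, and 0.000219 to 0.182 over all 22 alternatives. Poglut1, which adds glucose to Notch receptors, was higher in knockout-labelled cells with PMA, at 44.1, 42.8 and 43.3 CPM against 30.6, 36.1 and 29.6 CPM in HPg cells. Its log2 difference was 0.44 ± 0.100 (adjusted p = 0.0433, edgeR), and leaving out any library but the HPg libraries numbered 2 ended the call, with adjusted p-values of 0.0522 to 0.183 in edgeR (0.00256 to 0.183 over all 22 alternatives). With the block 12 of the 50 were called with PMA, 8 higher and 4 lower, and 8 untreated, 5 higher and 3 lower, where that fit called 18.6% and 12.5% of all genes.

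Jag2, the other Jagged ligand, was looked at after its values were seen, for its place beside Jag1. It had 0.524, 0.799 and 0.745 CPM in knockout-labelled cells with PMA, against 0.149, 0.241 and 0.326 CPM in HPg cells with PMA. Untreated, it had 0.502, 0.653 and 0.74 CPM in knockout-labelled cells, against 0.119, 0.352 and 0.19 CPM in HPg cells. The lines did not overlap in either condition. The log2 difference was 1.53 ± 0.431 with PMA (adjusted p = 0.0821) and 1.52 ± 0.434 untreated (adjusted p = 0.119) in edgeR, neither of which was called. The blocked edgeR fit called both higher, at adjusted p-values of 0.00746 and 0.00991, where it called 18.6% and 12.5% of all genes. Jag2 was a low-level gene, with 15 to 106 counts per library. It lies on chromosome 12, where the median log2 difference between the lines was 0.19 with PMA and 0.29 untreated.

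With PMA, Bhlhe40, another repressor related to the HES family, rose in both lines. It had 43.7, 61.9 and 58.8 CPM in knockout-labelled cells with PMA, against 7.60, 7.21 and 10.3 CPM in untreated knockout-labelled cells. HPg cells had 18.7, 39.4 and 25.2 CPM with PMA, against 5.95, 6.24 and 7.21 CPM untreated. The log2 fold changes were 2.71 ± 0.257 (adjusted p = 5.8e-05) and 2.10 ± 0.252 (adjusted p = 0.000616) in edgeR, and both calls held in all 22 alternatives. The difference of these responses was 0.61 ± 0.342, with an unadjusted p of 0.0998 and an adjusted p of 1 in edgeR. Lfng, a glycosyltransferase that adds N-acetylglucosamine to Notch, was lower with PMA in HPg cells, at 11.5, 15.9 and 12.1 CPM against 18.3, 26.6 and 22.6 CPM untreated. Its log2 fold change was -0.77 ± 0.182 (adjusted p = 0.0385, edgeR). In knockout-labelled cells Lfng had 19.3, 19.6 and 13.5 CPM with PMA against 22.5, 23.4 and 22.7 CPM untreated, at -0.39 ± 0.181 (adjusted p = 0.320, edgeR). The call in HPg cells was lost without untreated knockout-labelled library 1 or 3, untreated HPg library 2 or 3, or PMA-treated HPg library 1 or 3, where adjusted p-values (edgeR) were 0.0520 to 0.154 (0.00218 to 0.154 over all 22 alternatives). Over the list, edgeR called 1 of 50 in knockout-labelled cells and 2 in HPg cells, where it called 4.44% and 3.45% of all genes. The blocked fit called 4 and 11, where it called 13.4% and 14.8% of all genes. Rbpj, which carries the DNA-binding function of the pathway, had the lowest unadjusted p of the list for the difference of responses (0.0870, adjusted p = 1, edgeR). Its log2 fold change with PMA was -0.02 ± 0.141 in knockout-labelled cells and 0.35 ± 0.141 in HPg cells. The value in HPg cells was not called without the block (adjusted p = 0.209, edgeR) and was called with it (adjusted p = 0.0406, edgeR).

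**Figure D4:**
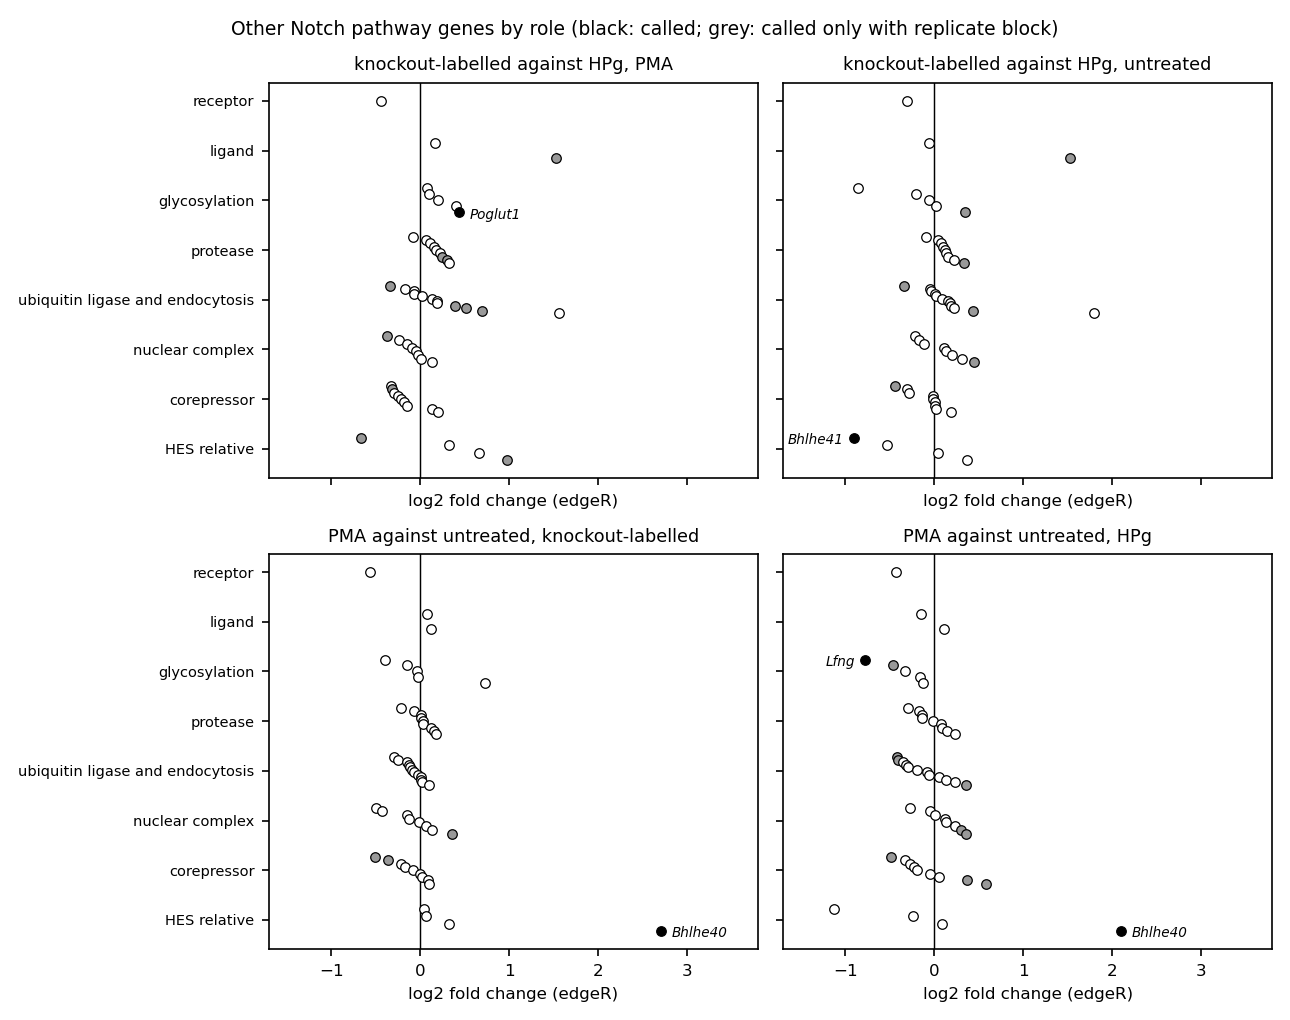
edgeR log2 fold changes (x axis) of the 50 other pathway genes that passed the filter, by role (y axis), in 4 comparisons, 1 point per gene. Black points are called without the block (Poglut1, Bhlhe41, Bhlhe40 and Lfng), grey points only with the replicate block, and open points in neither; the open point at 1.56 and 1.80 in the upper panels is Dtx1, a low-level gene with at most 0.467 CPM in any library.

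Likeness of pattern over the 12 libraries was taken as Pearson r of edgeR's log2 CPM with a prior count of 0.5. Genes without a symbol and predicted-gene, clone and pseudogene names were left out of the naming, but not of the counts of genes. The named genes most like Hey1 were Mcm3ap (0.974), Rbms2 (0.966) and Cisd1 (0.961). All 3 lie on chromosome 10, whereas Hey1 lies on chromosome 3, and 9 of 16630 genes had an r over 0.95. For Hes1 they included Arl4d (0.985) and Cdkn1a (0.981), and 39 genes had an r over 0.95. These values describe likeness over libraries that share groups, replicate numbers and depth.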

How the data were processed

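Per the file headers the deposited table holds 1 column of raw counts per library and 1 row per Ensembl gene. Per the submitters' processing notes the authors used cutadapt 1.11, STAR 2.5.0a, Subread featureCounts 1.4.6-p3 and the genome build mm9; the sources used here do not give the annotation release or strand setting. Per the labels' protocols libraries were directional and ribosome-depleted.

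Symbols (32620 of 37310 genes) and union exon lengths come from GENCODE M21, which is on GRCm38 and so on another build than the counts. Genes kept by filterByExpr (minimum count 10, minimum total 15) were fitted in edgeR 4.0.16 (R 4.3.3) with TMM factors, 1 coefficient per group over all 12 libraries, and robust quasi-likelihood F-tests. p-values were Benjamini-Hochberg adjusted over all 16630 genes, with calls below 0.05. SE is the absolute log2 fold change divided by the square root of F, and 95% intervals are 1.96 SE on each side. CPM use the TMM factors. The fit was also run on simulated counts that held no effect of the replicate number. That run does not show how the fit behaves where libraries share such an effect. The design text calls the libraries biological triplicates, and p-values measure the spread between these libraries. No replicate pair agreed within sampling noise (chi-square per degree of freedom 112.5 to 748.7).

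Libraries share replicate numbers across groups. The 18 same-number pairs of libraries deviated together from their group means, with correlations of 0.102 to 0.488. The 36 other pairs had -0.460 to 0.150, so the 2 ranges overlap. Deviations within a group sum to 0, so positive values in same-number pairs go with lower values in the others. These correlations do not tell a likeness of every number from a likeness of number 2 alone, and the labels do not say what a number shares. A fit with the number as a block was an alternative, as were other scaling factors and filters, DESeq2 1.42.0, fits of the compared groups alone, removal of chromosome medians and leaving out each library. Leaving out the libraries numbered 2 was added after the data were seen.

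The members and lists were chosen with earlier results of these data known. All members are named. Of the other pathway genes, those called were named, up to 6 per comparison by unadjusted p, or the 2 with the lowest p where none was called. The 3 genes most like Hey1 and Hes1 in pattern were to be named; 1 of those for Hes1 is not reported here.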

Additional observations from a re-analysis of the deposited data

How the results depend on the processing

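No log2 fold change that was called in either fit compared changed sign. Among uncalled ones, the sign turned in at least 1 alternative for 18 of the 45 member results, in 51 recomputed values; for Hey1 with PMA in knockout-labelled cells, at 0.00 on the log2 scale, it turned in 8 of 22. Over the 9 tested members, 937 of 981 recomputed log2 fold changes kept their call and direction, or moved by less than the spread between replicates where not called; 20 gained a call, 17 lost it and 7 moved further. The replicate block gave 5 members between the lines untreated, 5 with PMA, 4 for PMA in knockout-labelled cells and 1 for PMA in HPg cells, and it changed the calls named in the report and no other member's. For the other pathway genes the block gave 8, 12, 4 and 11. The cause of these shifts was not tested. Without the libraries numbered 2, members called were 4 untreated, 4 with PMA and 1 for PMA in knockout-labelled cells, and pathway genes 2 untreated and 6 with PMA. The share of all genes called is not given for that fit, nor for those that follow other than DESeq2. Their counts only follow the calls and are not read as a result about the members or the pathway genes. Fits of the compared groups alone, which use fewer samples, called 0 members untreated (Hey1 at an adjusted p of 0.0603 in edgeR, in a range of 3.10e-13 to 0.0603 over its alternatives), and 0 pathway genes untreated, 0 with PMA and 1 for PMA in HPg cells. DESeq2 called 3 members with PMA (Hes1 and Hey2 added), and 3, 5 and 4 pathway genes untreated, with PMA and for PMA in HPg cells; over all genes it called 775, 1174 and 1196, against 219, 411 and 574 by edgeR. Upper-quartile factors and library size alone each called 1 member for PMA in knockout-labelled cells, with Notch1 lost (adjusted p of 0.0580 and 0.0814 in edgeR; range 0.00613 to 0.187), and 3 and 0 pathway genes with PMA between the lines. In that comparison no filter on low counts gave 0, a filter of 1 CPM in 3 libraries gave 2 and removal of chromosome medians gave 2; untreated, the last gave 0. Leaving out each library in turn gave 1 to 2 members untreated, 0 to 2 with PMA, 1 to 2 for PMA in knockout-labelled cells, 1 for PMA in HPg cells and 0 for the difference of responses; for pathway genes the ranges were 0 to 2, 0 to 2, 1, 1 to 2 and 0. Notch3, Dll1, Hey2 and Heyl had 488 counts or fewer in every library; whether depth bears on their calls was not tested.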
